A study of Oryza sativa with 8 samples.

Results

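The 9 genes described here supply sugar to the rice anther and its pollen. They are the MYB regulator CSA, the sugar exporters SWEET11 and SWEET14, the sucrose transporters SUT1, SUT2, SUT3 and SUT5, the monosaccharide transporter MST8 and the enzyme gene UGP1. They were chosen by gene identifier or symbol and not by a rule on their values, although earlier results of these data were known. All 9 were found among the 30154 gene names of the table. CSA (Os01g0274800), SWEET11 (Os08g0535200), SWEET14 (Os11g0508600), SUT1 (Os03g0170900), SUT3 (Os10g0404500), SUT5 (Os02g0576600) and UGP1 (Os09g0553200) are listed under their identifiers, whereas SUT2 and MST8 are listed under their symbols.

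RNA was taken from the indica cultivar Pusa Basmati 1 (PB1). The 4 groups were nrpd1_kd anther, WT anther, nrpd1_kd panicle and WT panicle. The knockdown (kd) lowers NRPD1, the largest subunit of RNA polymerase IV, a plant polymerase that makes precursors of small RNAs for DNA methylation, and the series asked how gene expression differs from WT. Anthers were collected before dehiscence and panicles before emergence, plant ages are not given in the labels, and both genotypes were handled alike. The labels list 2 libraries per group and do not say how the knockdown was made, how many lines or plants it came from, or whether the libraries of a group came from separate plants. The table holds 1 value per gene and group, in FPKM (fragments per kilobase of transcript, relative to all mapped fragments), and none per library. No value therefore has an error, no test was possible, and whether neighbouring levels differ beyond the spread between replicates cannot be told.

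Anthers are fed with sucrose from the phloem. Sucrose leaves cells through SWEET exporters and enters others through proton-coupled SUT carriers, or is split by invertases into hexoses that MST carriers take up. The tapetum, the inner anther wall, passes sugar to the microspores, and ripening pollen stores it as starch. CSA (Carbon Starved Anther) is a regulator of this supply: rice plants without it have anthers low in sugar and are male sterile, and MST8 is a known target of CSA.

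The libraries differed in ways that touch what follows. The summed FPKM was 341703 in kd anther, 636692 in WT anther, 428187 in kd panicle and 382488 in WT panicle. The targeted NRPD1 genes are not analysed here, so the knockdown was not checked. Marker lists for each tissue were measured. Of 4 late pollen markers, all 4 were found, and their FPKM summed to 20.4 in kd anther and 94.7 in WT anther, and to 0.304 in kd panicle and 7.65 in WT panicle. In WT anther 3 of these 4 reached 1 FPKM, and 1 of the 4 was listed at 0 in kd panicle. Of 10 tapetum markers, all 10 were found, and their FPKM summed to 4693 in kd anther and 412.5 in WT anther, and to 3166 in kd panicle and 137.8 in WT panicle. In anther 3 of the 6 tapetum markers compared were higher in the knockdown and none was lower. In panicle 8 of the 10 compared were higher and none was lower, and 1 of the 10 was listed at 0 in WT panicle. These 2 directions held under each scaling of the columns tried. Of 8 spikelet markers, 7 were found, and they summed to 595.8 in kd anther, 808.4 in WT anther, 590.2 in kd panicle and 814.5 in WT panicle, with none at 0. All 6 green tissue markers were found, and they summed to 4.25 in kd anther and 65.5 in WT anther, and to 844.1 in kd panicle and 2539 in WT panicle, with none at 0. The green tissue markers compared were lower in the knockdown in 3 of 4 cases in anther and in 6 of 6 in panicle. The late pollen, tapetum and green tissue signals thus moved with the genotype, and their part in the results on sugar genes was not tested. In bulk tissue fewer cells of a type and less RNA per cell cannot be told apart.

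CSA was higher in the knockdown in both tissues, while SWEET14 was lower in both, and SUT2 and SUT5 were lower in kd anther. The SUT2 value came mainly from a row that joins it with the neighbouring Os12g0641300. Genes with at least 1 FPKM in 1 or both columns of a comparison were compared, and a gene was called where the difference of log2(FPKM + 1), which understates the change of weakly expressed genes, was at least 1 in size. In anther 6 of the 9 genes were compared, of which 1 was higher and 3 were lower in the knockdown. Over all 17943 genes compared in anther, 25.0% were called, with 7.37% higher and 17.6% lower. In panicle 6 of the 9 were compared, of which 1 was higher and 1 was lower. Over all 18655 genes compared in panicle, 23.9% were called, with 13.2% higher and 10.7% lower. With 6 genes compared, these counts describe the genes one by one and set the group apart from no other. SUT1, SUT3 and MST8 were under 1 FPKM in all 4 columns and were not compared. In both tissues CSA passed the filter only through its kd values and SWEET14 only through its WT values, so a low value on the other side was part of passing.

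**Figure D1:**
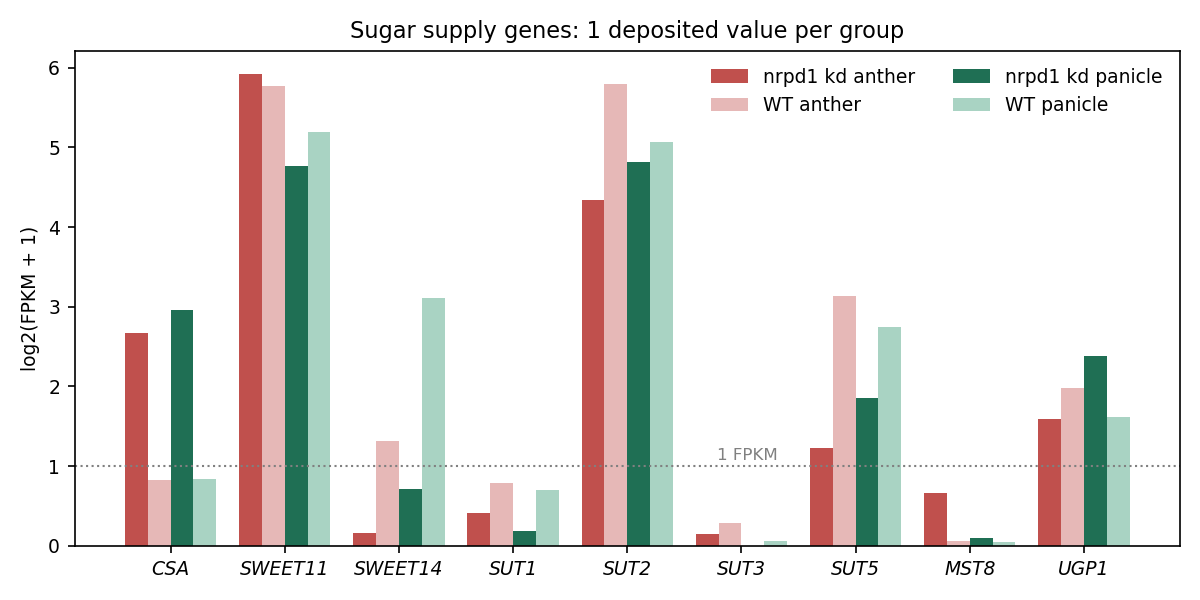
Level of each gene as log2(FPKM + 1) in kd anther, WT anther, kd panicle and WT panicle, 1 deposited value per group and no error bars; the dotted line marks 1 FPKM. SWEET11 and SUT2 are the highest in each group, CSA is higher in both kd groups than in both WT groups, and SUT1, SUT3 and MST8 lie under the line throughout. The SUT2 level is mainly that of a row joined with Os12g0641300.

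CSA (chromosome 1, 9567343 to 9569287, genome build not given in the sources used here) was at 5.35 FPKM in kd anther and 0.772 FPKM in WT anther. It was at 6.79 FPKM in kd panicle and 0.779 FPKM in WT panicle. Both kd values lay above both WT values, and the WT values of anther and panicle were nearly equal. The FPKM ratio of knockdown to WT was 6.93 in anther and 8.72 in panicle, and the log2 differences were 1.84 and 2.13. Among the genes compared, 1.76% differed upward at least as far in anther and 3.63% in panicle. CSA entered these comparisons only through its kd values, so the ranks describe its place and are no separate support. Under median centring, quantile normalization, equal totals and a pseudocount of 0.1 the log2 difference stayed between 1.84 and 2.64 in anther and between 2.08 and 2.97 in panicle. The summed tapetum markers were higher in the same kd columns, and the summed late pollen, green tissue and spikelet markers were lower, as given above. The part of these marker lists in the CSA values was not tested.

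MST8, the hexose carrier downstream of CSA in rice anthers, was listed at very low values (chromosome 1, 21719834 to 21722377). It was at 0.586 FPKM in kd anther, 0.0416 FPKM in WT anther, 0.0694 FPKM in kd panicle and 0.0317 FPKM in WT panicle. The kd anther value stood above the other 3, but at under 1 FPKM the gene was not compared. A second name, Os01g0567533, fills exactly the same coordinates. Os01g0567533 was at 39.9 FPKM in kd anther and 6.12 FPKM in WT anther, a log2 difference of 2.52, and at 3.83 FPKM in kd panicle and 1.48 FPKM in WT panicle, a log2 difference of 0.96. Both names at the MST8 locus were highest in kd anther and lowest in WT panicle. The library kit keeps the strand of the RNA, but the table gives no strand for any row, so which gene the reads of each row belong to cannot be told apart.

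The 2 SWEET exporters, plasma membrane proteins that let sucrose out of cells, differed from each other. SWEET11 (chromosome 8, 26725839 to 26728803) was at 59.4 FPKM in kd anther and 53.6 FPKM in WT anther. In panicle it was at 26.1 FPKM in the knockdown and 35.5 FPKM in WT. Its order was kd anther, WT anther, WT panicle, kd panicle, and between 3.27% and 10.9% of all gene names in a column stood above it. The log2 differences between knockdown and WT were 0.15 in anther and -0.43 in panicle, both short of the threshold, although equal column totals put the anther value at 1.03.

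SWEET14 (chromosome 11, 18171704 to 18174478), which works beside SWEET11 in rice grain filling, was at 0.115 FPKM in kd anther and 1.49 FPKM in WT anther. It was at 0.641 FPKM in kd panicle and 7.64 FPKM in WT panicle. Each kd value was the lower of its tissue, and WT panicle stood above the other 3 values. WT exceeded the knockdown 13.02-fold in anther and 11.9-fold in panicle, and the log2 differences of knockdown minus WT were -1.16 and -2.40. Of the genes compared, 14.2% differed downward at least as far in anther, against 2.72% in panicle. Since SWEET14 was compared only through its WT values, these ranks too are no separate support. With equal column totals the anther difference was -0.83 and no longer called, whereas the panicle difference stayed between -3.38 and -2.38 under the scalings and the smaller pseudocount. As deposited, the summed green tissue, late pollen and spikelet markers were all lower in the knockdown in both tissues, and the summed tapetum markers were higher. Of the 6 spikelet markers compared in each tissue, 2 were called lower in anther and 0 in panicle. With equal totals 1 spikelet marker was called lower in anther. The part of these marker lists in the SWEET14 values was not tested.

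**Figure D2:**
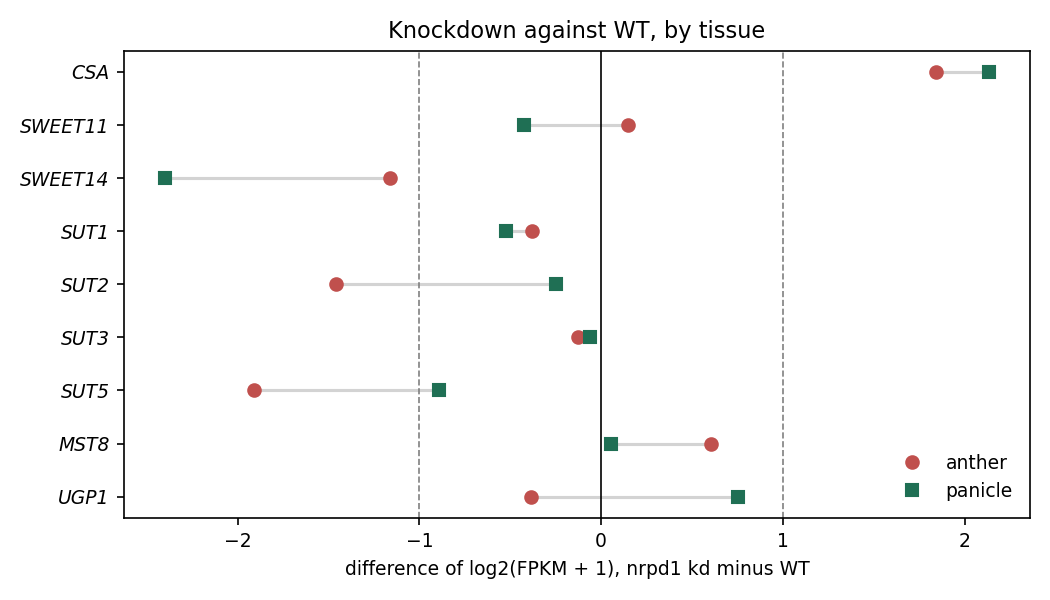
Difference of log2(FPKM + 1), knockdown minus WT, for each gene in anther (circles) and panicle (squares), with dashed lines at the threshold of 1 in each direction. CSA lies beyond the upper line in both tissues at 1.84 and 2.13, SWEET14 beyond the lower line in both at -1.16 and -2.40, and SUT2 and SUT5 beyond it in anther at -1.46 and -1.91. The SUT2 difference is mainly that of a row joined with Os12g0641300.

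Among the sucrose carriers, SUT5 and the summed rows holding SUT2 were above 1 FPKM, and SUT1 and SUT3 were not. SUT5 (chromosome 2, 22146352 to 22150147), a sucrose importer of the cell membrane, was at 1.35 FPKM in kd anther and 7.81 FPKM in WT anther. It was at 2.61 FPKM in kd panicle and 5.71 FPKM in WT panicle. Both kd values lay below both WT values. WT exceeded the knockdown 5.80-fold in anther and 2.19-fold in panicle, with log2 differences of knockdown minus WT of -1.91 and -0.89. The anther difference stayed past the threshold, between -2.45 and -1.23, under the scalings and the smaller pseudocount. The panicle difference missed the threshold but passed it at -1.10 with a pseudocount of 0.1 and at -1.04 with equal totals.

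SUT2, the sucrose carrier of the vacuole membrane, was at 19.2 FPKM in kd anther and 54.4 FPKM in WT anther (chromosome 12, 27494384 to 27518275). In panicle it was at 27.3 FPKM in the knockdown and 32.6 FPKM in WT. WT anther was the highest of the 4 values and kd anther the lowest. The log2 difference was -1.46 in anther and -0.25 in panicle. Nearly all of this SUT2 value came from a row that joins SUT2 with the neighbouring Os12g0641300, at 18.99 FPKM in kd anther and 54.04 FPKM in WT anther, in which the reads of the 2 genes are not separated. The row named SUT2 alone was at 0.196 FPKM in kd anther and 0.384 FPKM in WT anther, a log2 difference of -0.21. At under 1 FPKM that row could not be compared, so it does not tell whether SUT2 itself was lower. The anther call on the summed SUT2 rows was lost at -0.93 with quantile normalization and at -0.59 with equal totals.

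SUT1, the sucrose importer needed for pollen function in rice, was at 0.330 FPKM in kd anther and 0.730 FPKM in WT anther (chromosome 3, 3797672 to 3804166). It was at 0.132 FPKM in kd panicle and 0.627 FPKM in WT panicle, so both kd values were below both WT values at a level too low to be compared. SUT3 (chromosome 10, 13778815 to 13785375), known as a carrier of pollen, was at 0.111 FPKM in kd anther and 0.213 FPKM in WT anther. It was listed at 0 in kd panicle and at 0.0425 FPKM in WT panicle. The SUT3 locus holds 2 further names. Of these Os10g0404533 was at 0.928 FPKM in kd anther and 7.001 FPKM in WT anther, a log2 difference of -2.05, and Os10g0404566 was at 0.794 FPKM in kd anther and 4.82 FPKM in WT anther, a log2 difference of -1.70. Both were listed at 0 in kd panicle and were at 0.384 FPKM (Os10g0404533) and 0.642 FPKM (Os10g0404566) in WT panicle. The SUT3 row was between 3.05% and 12.0% of the Os10g0404533 row where neither was at 0. The 3 names of this locus were each highest in WT anther. The 3 late pollen markers compared in anther were lower in the knockdown, as were 3 of the 4 green tissue markers compared. With equal totals 2 late pollen markers and 2 green tissue markers were lower there. A link to the SUT3 locus was not tested.

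UGP1 makes UDP-glucose, a precursor of sucrose, cell wall and callose, and rice plants without it are male sterile. Its row (chromosome 9, 21917322 to 21926078) was at 2.01 FPKM in kd anther and 2.93 FPKM in WT anther. It was at 4.19 FPKM in kd panicle and 2.08 FPKM in WT panicle. The knockdown value was the lower one in anther and the higher one in panicle, with log2 differences of -0.38 and 0.75 that both missed the threshold. Equal totals turned the anther value to 0.25. Another name at the same coordinates, Os09g0553250, was at 90.0 FPKM in kd anther and 144.2 FPKM in WT anther, a log2 difference of -0.67. In panicle Os09g0553250 was at 230.7 FPKM in the knockdown and 100.04 FPKM in WT, a log2 difference of 1.20. The third name, Os09g0553300, was at 9.48 FPKM in kd anther, 10.95 FPKM in WT anther, 17.8 FPKM in kd panicle and 16.5 FPKM in WT panicle.

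The UGP1 row was a nearly constant share of the Os09g0553250 row, between 1.82% and 2.24% over the 4 columns. The MST8 row was between 0.679% and 2.14% of the Os01g0567533 row. Low shares were also seen where 1 gene occurs in 2 rows of a locus, as 5 of the 9 genes do. For SUT2 the stronger of these rows also holds Os12g0641300. The fainter row was between 1.56% and 2.03% of the stronger for SWEET11, between 0.711% and 2.13% for SUT2 and between 1.23% and 3.39% for SUT5. It was between 0% and 4.14% for CSA and between 0% and 8.97% for SWEET14. Over the table, loci with exactly 2 rows of the same name and at least 5 FPKM in the stronger row had a median share of 2.30% in kd anther (6547 loci), 2.29% in WT anther, 2.26% in kd panicle and 2.35% in WT panicle. Loci with exactly 2 rows of different names were held to the same minimum of 5 FPKM in the stronger row. Their median was 2.78% in kd anther (1786 loci), 2.84% in WT anther, 2.71% in kd panicle and 2.81% in WT panicle. The quartiles at these loci of different names were 1.97% and 4.49% in kd anther, 1.96% and 4.77% in WT anther, 1.87% and 4.73% in kd panicle and 2.00% and 5.14% in WT panicle. The share of the MST8 row, whose locus has these 2 rows alone, was below the lower quartile in kd anther (1.47%) and WT anther (0.679%). Its shares in kd panicle (1.81%) and WT panicle (2.14%) have no such reference. There the Os01g0567533 row was under 5 FPKM, so the locus was not among those summarized. The UGP1 locus holds 3 rows of other names besides its own and is not among the loci with exactly 2 rows. A locus shared with another name is common, at 43.6% of the 30154 names.

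**Figure D3:**
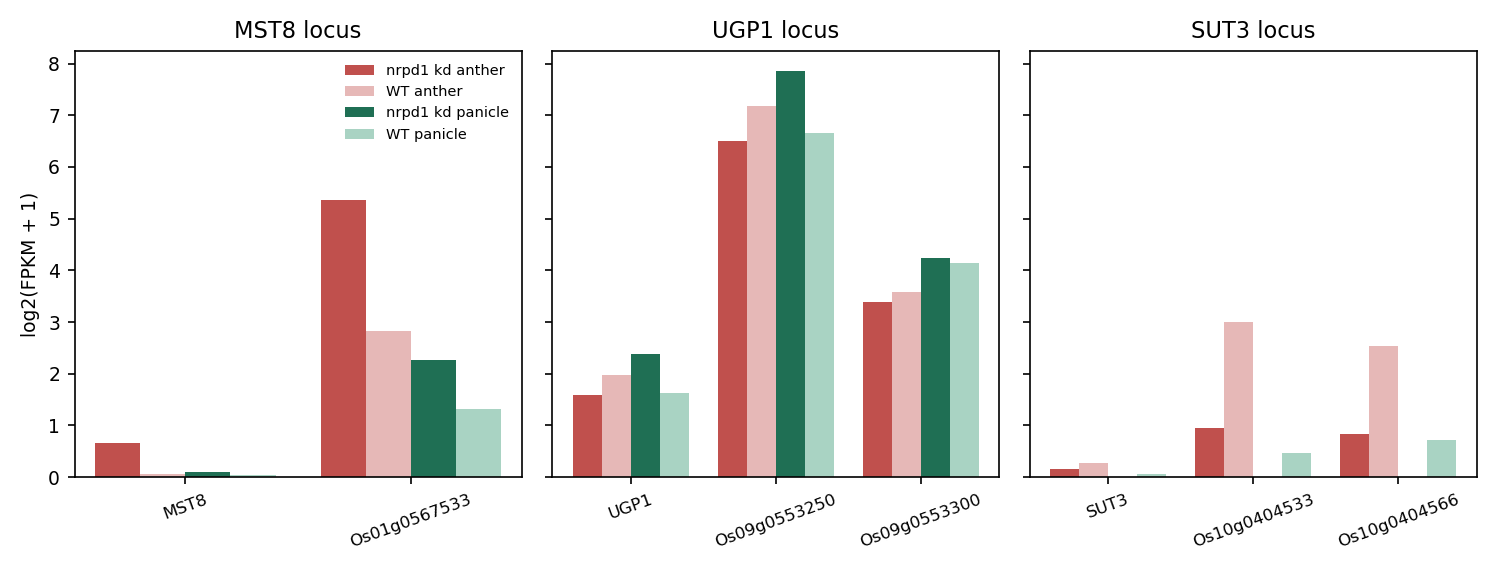
log2(FPKM + 1) of all names at the MST8, UGP1 and SUT3 loci in kd anther, WT anther, kd panicle and WT panicle, rows of one name summed. Os01g0567533 and Os09g0553250 stand far above MST8 and UGP1, and Os10g0404533 reaches 7.001 FPKM in WT anther where SUT3 is at 0.213 FPKM.

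The genes were then compared between tissues of 1 genotype. Of the 5 genes compared in WT, SWEET14 was lower in anther than in panicle by 1.79 on the log2 scale, and none was higher by 1. Over all 18935 genes compared in WT, 38.5% were called, with 20.4% higher and 18.1% lower in anther. The log2 difference of WT anther minus WT panicle was 0.58 for SWEET11, 0.72 for SUT2, 0.39 for SUT5 and 0.35 for UGP1. With equal totals it was -0.14 for SWEET11, 0.005 for SUT2, -0.24 for SUT5 and -0.16 for UGP1, so their direction depended on the scaling. SWEET14 stayed lower in WT anther, at -2.28. In the knockdown 5 genes were compared, and SWEET11 was higher in anther than in panicle by 1.15. Over all 18958 genes compared in the knockdown, 36.5% were called, with 14.0% higher and 22.5% lower in anther. CSA was at 5.35 FPKM in kd anther and 6.79 FPKM in kd panicle, a log2 difference of -0.29. The knockdown difference in anther minus that in panicle was 1.24 for SWEET14, -1.21 for SUT2, -1.14 for UGP1 and -1.01 for SUT5, and between -0.29 and 0.57 for the other 5 genes. For SWEET14, WT exceeded the knockdown 13.02-fold in anther and 11.9-fold in panicle, and a pseudocount of 0.1 gave -2.89 and -3.38. These gaps also depended on the scaling. Equal totals gave anther and panicle differences of -0.59 and -0.41 for SUT2, 0.25 and 0.65 for UGP1, and -1.23 and -1.04 for SUT5. They gave -0.83 and -2.57 for SWEET14, and 1.03 and -0.59 for SWEET11. None of these differences between tissues could be tested.

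A list of 41 other sugar genes, made up of further sucrose, hexose and SWEET carriers, invertases, sucrose synthases, hexokinases and a second UDP-glucose pyrophosphorylase, was taken by identifier from general knowledge of the rice genome. Of these, 37 were found in 36 separate rows or sets of rows, and 4 carry a symbol in the table. The strongest row of 6 of the 36 joins several gene names. In anther 27 were compared, of which 3 were higher and 11 lower in the knockdown as deposited. Of all genes compared in anther, 7.37% were called higher and 17.6% lower. Equal totals gave 8 higher and 7 lower on the list, but put the median of all genes compared in anther at 0.597. No share over all genes is given for that scaling. As deposited, the median log2 difference of the list in anther was -0.68, against -0.15 over all genes compared. In panicle 29 list genes were compared, of which 1 was higher and 7 were lower, and their median was -0.36 against -0.03 over all genes. Of all genes compared in panicle, 13.2% were called higher and 10.7% lower. Under the scalings between 5 and 8 were lower in kd panicle and 1 was higher.

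The hexose carriers named in the table were MST3, MST4, MST5 and MST6. MST5 was at 20.3 FPKM in kd anther and 63.1 FPKM in WT anther, a log2 difference of -1.59. It was listed at 0 in kd panicle and was at 5.84 FPKM in WT panicle. MST4 was at 13.1 FPKM in kd anther and 35.4 FPKM in WT anther, a log2 difference of -1.37, and its panicle difference was -0.67. With equal totals the anther differences of MST5 and MST4 were -0.72 and -0.51, neither of them called, and with quantile normalization that of MST4 was -0.94. MST6 was called in panicle only, at 7.44 FPKM in the knockdown and 16.3 FPKM in WT, a log2 difference of -1.04. MST3 was called in neither tissue as deposited, though equal totals put its anther difference at 1.10, and its main row joins it with Os07g0106100.

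The largest falls of this list in kd anther were those of Os03g0341300, at 0.528 FPKM against 41.1 FPKM in WT (log2 difference -4.79), and of Os05g0588500, at 0.880 FPKM against 25.2 FPKM in WT (-3.80). Os02g0301100 was lower in both tissues. It was at 95.0 FPKM in kd anther and 489.2 FPKM in WT anther (-2.35), and at 80.6 FPKM in kd panicle and 225.9 FPKM in WT panicle (-1.48). Os04g0413500 was at 19.6 FPKM in kd anther and 88.6 FPKM in WT anther (-2.12). Each of these 4 anther falls was still called with median centring, quantile normalization and equal totals. On the log2(FPKM + 1) scale the rises in kd anther were smaller, at 1.38 for Os01g0722700, 1.16 for Os03g0401300 and 1.03 for Os02g0831500. In kd anther against WT anther Os01g0722700 was at 2.83 and 0.472 FPKM, Os03g0401300 at 1.72 and 0.220 FPKM, and Os02g0831500 at 7.51 and 3.16 FPKM. Os01g0722700 and Os03g0401300 were under 1 FPKM in WT anther, so that scale understates their change in FPKM. In panicle Os03g0401300 was at 25.8 FPKM in the knockdown and 1.81 FPKM in WT (3.26), and it was the only list gene called higher there. Besides MST5, the falls in kd panicle included Os05g0426000, partly in a row joined with Os05g0426033, at 0.109 FPKM against 5.66 FPKM in WT (-2.58), and Os05g0522500, at 0.518 FPKM against 2.44 FPKM in WT (-1.18). Os02g0301100 and MST5 were called lower in both tissues, and Os03g0401300 was called higher in both.

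**Figure D4:**
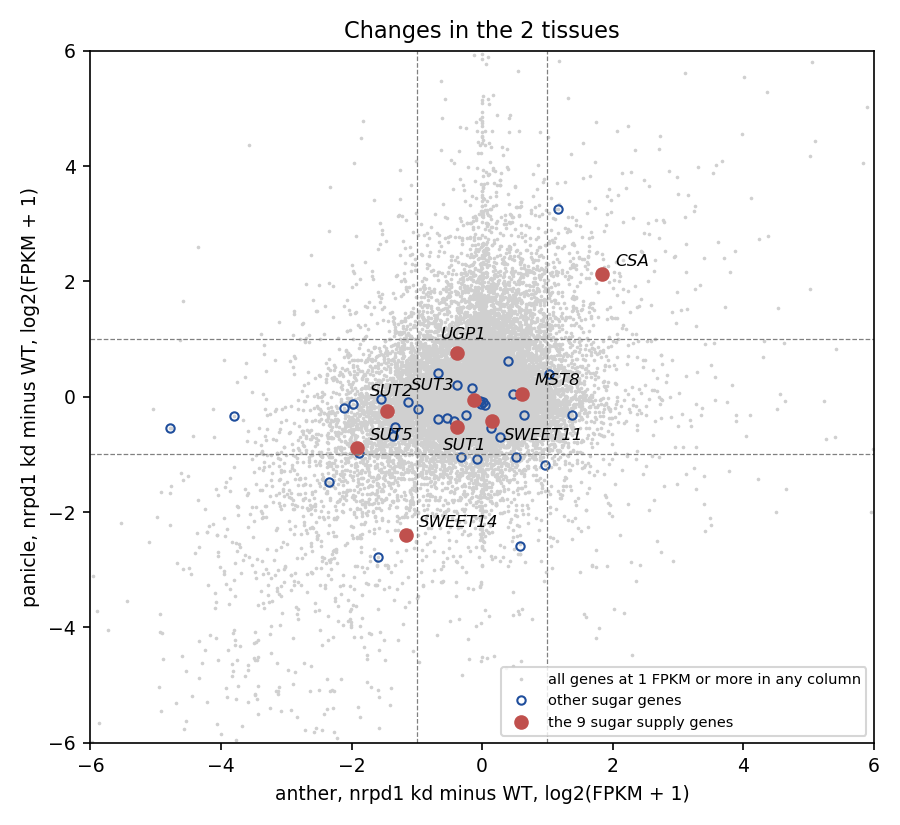
Difference of log2(FPKM + 1), knockdown minus WT, in anther (horizontal) and panicle (vertical) for the 9 sugar supply genes (filled), the 36 other sugar genes (open) and all 20322 gene names with 1 FPKM or more in a column (grey), with dashed lines at 1 in each direction; 68 genes lie outside the axes. CSA and 1 other sugar gene lie beyond the upper threshold in both tissues, and SWEET14 and 2 other sugar genes beyond the lower one in both.

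For the 4 genes called in anther, the 3 gene names with the most similar values were found by the Euclidean distance over the 4 log2(FPKM + 1) values among 20322 names. For CSA they were Os04g0659850 (distance 0.245), Os02g0807000 (0.334) and Os06g0539400 (0.591). Os04g0659850 was at 6.44 FPKM in kd anther, 0.832 FPKM in WT anther, 6.61 FPKM in kd panicle and 0.698 FPKM in WT panicle. For SWEET14 they were Os01g0592500 (0.281), Os07g0153150 (0.381) and Os09g0272000 (0.514). For SUT5 they were Os03g0284100 (0.303), Os12g0157066 (0.391) and Os01g0651100 (0.543). For SUT2 they were a row joining Os08g0440850 with Os08g0440900 (0.258), a row joining Os02g0106800 with Os02g0106900 (0.305) and Os04g0494400 (0.323). A distance over 4 values describes these columns only.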

How the data were processed

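Messenger RNA was sequenced with a strand-keeping kit, per the labels' protocols. The submitters' processing notes name Trimmomatic, HISAT2 and Cufflinks 2.2.1. The genome build, the annotation, the scaling between libraries and how the 2 libraries of a group were combined are not given in the sources used here. The deposited values are FPKM per the file headers, with 1 column per group. Depth is unknown, so no interval or detection limit is given.

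All rows holding a gene's identifier or symbol on its own chromosome were summed, and all other rows were summed by name. Changes are differences of log2(FPKM + 1). Genes with 1 FPKM or more in either column were compared, and called at a difference of at least 1. The calling step was tested on simulated columns with an assumed spread. The spread of these data is unknown, so the simulation gives no error rate for the calls. The members and lists were chosen with earlier results of these data known. All 9 members were named. Of the other sugar genes, up to 4 with the largest called rise and 4 with the largest called fall per tissue were named, and the MST genes because the table gives their symbols, chosen after their values were seen. Further names at the members' loci were also chosen after their values were seen. Alternatives were another pseudocount, filters, thresholds, scalings and treatments of rows. Python 3.11.15, numpy 2.4.6, pandas 2.3.3 and matplotlib 3.10.9 were used.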

Additional observations from a re-analysis of the deposited data

Results flagged for a closer look

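Signals appeared at the members' loci under other gene names, outside the rows that the choice of genes covers. Os01g0567533, at the MST8 locus, was higher in kd anther than in WT anther by 2.52 on the log2 scale, at 39.9 FPKM against 6.12 FPKM. Os09g0553250, at the UGP1 locus, was higher in kd panicle than in WT panicle by 1.20, at 230.7 FPKM against 100.04 FPKM. Each group has a single value, so neither difference was tested.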

How the results depend on the processing

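No paired analysis was possible because each group has a single deposited column with no replicate number. Fits with a replicate block, or without 1 of the libraries, were not run for the same reason. Of the recomputed counts, 75 stayed within 1.5 times the reported one and 17 did not. Of the 9 genes, 2 were lower in kd panicle with a pseudocount of 0.1 and 2 with equal totals, against 1 as reported. Also with a pseudocount of 0.1, 1 was lower in kd anther than in kd panicle (UGP1, at -1.02), against 0. Equal totals gave 2 higher and 1 lower in kd anther, against 1 and 3, and moved the median of all genes compared in anther by 0.75 (log2). Which scaling is right for these columns was not tested. Among the other sugar genes equal totals gave 8 higher and 7 lower in kd anther. A minimum mean level of 5 FPKM left 0 higher and 1 lower in kd anther (SUT2), 0 higher and 0 lower in kd panicle, 0 lower in anther of the WT pair, and 4 other sugar genes lower in kd panicle. It removed CSA, SWEET14 and SUT5, whose means are lower, and did not change their differences. At a log2 threshold of 2, 0 were higher and 0 lower in kd anther, 0 were lower in anther of the WT pair, and 0 were higher in kd anther than in kd panicle. CSA and SWEET14 stayed called in panicle. No called difference of the 9 genes changed sign. Without replicates or depth, no difference could be set against an error.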
